A study of Mus musculus with 24 samples.

Results

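The Id family, *Id1*, *Id2*, *Id3* and *Id4*, was examined in all 24 RNA-seq libraries of a study of the liver ligands GDF2 (also called BMP9) and BMP10 in the mouse. The members were chosen by symbol, and each of the 4 symbols was found once in each of the 4 count tables, which hold 48820 entries each. Liver macrophages, hepatic endothelial cells (ECs) and whole livers came from C57BL/6 mice labelled Bmp9/10-HSC-KO and from their controls, with 3 libraries per group. The mutant genotype is *Gdf2* fl/fl *Bmp10* fl/fl with *Lrat*-Cre, a Cre driven by a gene of hepatic stellate cells (HSCs). Both ligands were thus deleted in HSCs, which whole livers hold, and not in the sorted macrophages and ECs. A further 3 libraries of liver macrophages came from mice labelled Smad4FF cKO (*Smad4* fl/fl *Vav1*-Cre) and 3 from Smad4FF controls. *Vav1*-Cre acts in hematopoietic cells at large, so *Smad4* was not deleted in macrophages alone. Mice were 8 to 10 weeks old for macrophages and ECs and 12 weeks old for livers. The sort gates were CD45+Ly6C-F4/80+CD64+ for macrophages and CD45-CD31+ for ECs. By the labels, 3 mice gave both a macrophage and an EC library.

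Id proteins are helix-loop-helix proteins without the basic region that contacts DNA. They pair with E proteins (TCF3, TCF4 and TCF12), which otherwise join tissue-restricted bHLH factors to bind DNA, and the pair with an Id protein cannot bind. BMP ligands act through type I receptors such as ALK1 (gene *Acvrl1*), which phosphorylate SMAD1, SMAD5 and SMAD9. These enter the nucleus with SMAD4 and switch on target genes, of which the Id genes are the classical ones. ECs and Kupffer cells, the resident macrophages of the liver, both carry ALK1.

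The 4 genes lie on 4 chromosomes of the mouse genome (GRCm38, GENCODE vM21). *Id1* (ENSMUSG00000042745.9) is at chr2:152736251-152737410 on the plus strand, *Id2* (ENSMUSG00000020644.9) at chr12:25093799-25097140 on the minus strand, *Id3* (ENSMUSG00000007872.3) at chr4:136143497-136145755 on the plus strand and *Id4* (ENSMUSG00000021379.2) at chr13:48261228-48266026 on the plus strand. Their merged exons span 1160, 2438, 1791 and 3849 bases. Only *Id4* has exons that overlap those of other genes, over 253 bases in all, and those genes (A330033J07Rik and Gm49291) lie on the opposite strand. The use of strand in the counting is not given in the sources used here, so reads of *Id4* and of these genes cannot be told apart there. A330033J07Rik had 71 to 102 counts in control ECs, 8 to 38 in HSC-KO ECs and at most 14 elsewhere, against 2947 to 4008 counts of *Id4* in control ECs.

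Stretches before the RefSeq start sites are shown because the SMAD proteins downstream of BMP receptors are known to bind GC-rich motifs in Id promoters. RefSeq (GRCm38.p6) promoter sequences matched 3 of the 4 genes, *Id2*, *Id3* and *Id4*, and *Id1* was not among them. The 250 bases before each start were searched on both strands for GGCGCC and GGAGCC, the motifs known for SMAD1 and SMAD5, and for GTCT, the short motif known for SMAD4. Only the part outside annotated exons is printed for *Id2* (chr12:25096254-25096342, minus strand) and *Id4* (chr13:48260866-48261115, plus strand), and 30 bases around the motif for *Id3* (chr4:136143623-136143652, plus strand), whose window lies wholly in an annotated exon. Starts are those of RefSeq, and the stretch of *Id2* lies inside the gene as GENCODE bounds it, in an intron of a longer transcript that starts further upstream. GGCGCC and GGAGCC are in capitals, and GGCTCC is GGAGCC read on the other strand.
Id2: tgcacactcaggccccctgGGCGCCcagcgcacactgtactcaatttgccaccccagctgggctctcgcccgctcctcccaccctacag
Id3: cctcgcatccgaGGCTCCgctgtcctcggc
Id4: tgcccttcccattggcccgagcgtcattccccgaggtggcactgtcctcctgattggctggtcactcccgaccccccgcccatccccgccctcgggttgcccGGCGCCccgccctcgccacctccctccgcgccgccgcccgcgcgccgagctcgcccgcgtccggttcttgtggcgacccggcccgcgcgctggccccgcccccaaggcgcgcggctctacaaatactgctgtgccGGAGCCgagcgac

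GGCGCC, which reads the same on both strands, stood at bases -231 to -226 of *Id2* and at -148 to -143 of *Id4*, counted from the start site, and not in the window of *Id3*. Of 32851 promoters of the same length, 9.59% hold it. GGAGCC was present in all 3 windows, at -88 to -83 in *Id2*, -187 to -182 in *Id3* and -13 to -8 in *Id4*, and 8533 of the 32851 promoters hold it. GTCT occurred once in *Id2* and at 2 places in *Id3* and was not found in the window of *Id4*, and 82.9% of promoters hold it. These matches describe the letters in these windows only.

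Libraries held 60911527 to 110879155 counts (median 85451301). Levels are given as CPM, counts scaled to library size and TMM factor within each table, and levels of different genes are set side by side only as RPKM, CPM per kilobase of exon. A gene was called a DEG when edgeR's quasi-likelihood test gave a Benjamini-Hochberg adjusted p below 0.05 over all genes tested and the absolute log2 fold change was above 1. Cell type markers fitted the labels, with summed levels of the 10 macrophage markers of 11214 to 25210 CPM in macrophage libraries and 67.8 to 331 CPM in EC libraries, and of the 12 endothelial markers of 15151 to 21699 CPM in ECs. The deletions were visible where the genes are expressed. In livers, *Gdf2* was at 18.4, 9.38 and 22.5 CPM in controls and 3.84, 2.12 and 2.63 CPM in HSC-KO mice, and *Bmp10* at 3.28, 2.72 and 1.99 CPM against 0.0938, 0.262 and 0.111 CPM. In macrophages, *Smad4* was at 40.1, 35.2 and 42.8 CPM in Smad4FF controls and 17.2, 12.6 and 15.4 CPM in Smad4FF cKO mice (log2 difference -1.39, SE 0.16, edgeR adjusted p = 0.00234). Neither *Smad4* nor any Id gene is deleted in the HSC-KO mice, and the *Smad4* level there differed from control by 0.0088 on the log2 scale in macrophages, 0.0060 in ECs and 0.10 in livers.

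Control levels differed widely among the 4 genes. *Id3* had the highest level of the family per length of exon in control macrophages (578 ± 60.1 RPKM, SD, n = 3), in Smad4FF control macrophages (1133 ± 48.1 RPKM) and in control ECs (755 ± 90.8 RPKM), and it made up 93.6%, 95.6% and 93.0% of the summed family RPKM there. *Id2* came next in the macrophages (26.6 ± 3.496 RPKM) and *Id1* next in the ECs (23.96 ± 7.57 RPKM). In control livers the sum was 45.4 RPKM against 617 in control macrophages and 811 in control ECs, and *Id2* held the largest share, 52.1%, with 31.9% for *Id3*. *Id4* held 1.61% of the sum in control ECs and 0.0212% in control macrophages.

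**Figure D1:**
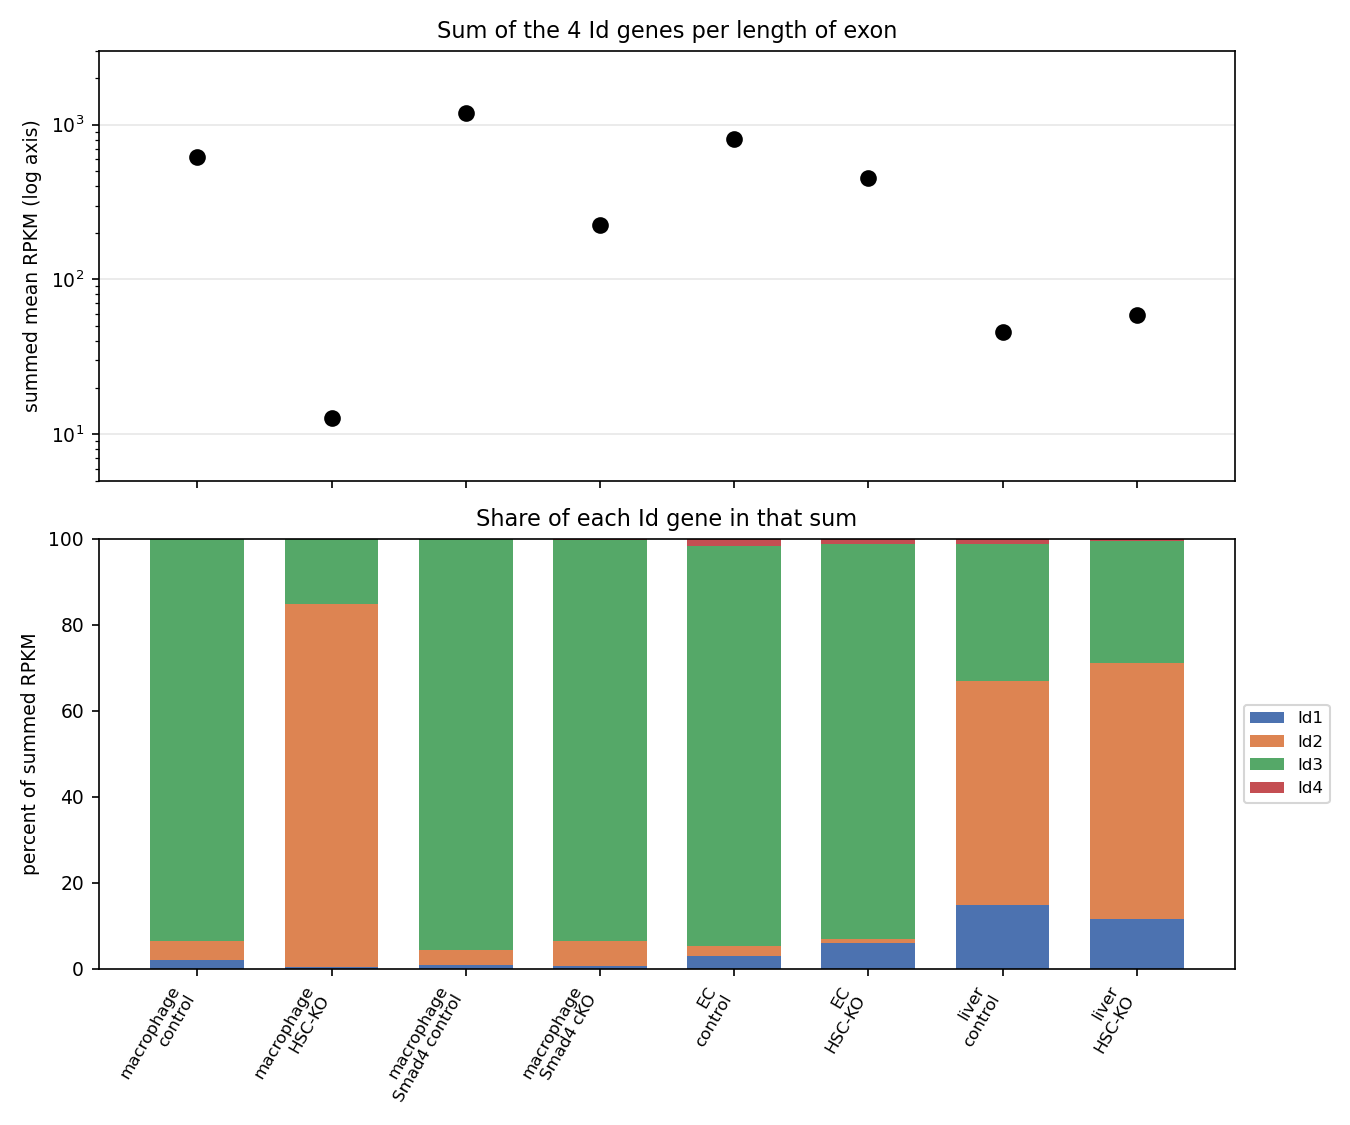
The upper panel shows the summed group means of the 4 Id genes in RPKM on a log axis for each of the 8 groups, and the lower panel the percentage of that sum held by each gene. The sum was 617 RPKM in control macrophages and 12.7 RPKM in HSC-KO macrophages, where *Id2* held 84.2% of it.

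Levels of the same gene were compared between control groups, where cell type and count table cannot be told apart. *Id4* was higher in ECs than in macrophages (log2 difference 6.41, SE 1.14, edgeR adjusted p = 0.003), and it was the only Id gene called there, while 35.9% of 16160 genes were called and 17.9% were called higher in ECs. ECs exceeded livers in *Id3* (log2 5.19, SE 0.38), *Id4* (4.02, SE 0.24) and *Id1* (1.32, SE 0.38, adjusted p = 0.0148), and the last call was lost without EC control replicate 1 (1.03), without liver control replicate 2 (1.09) or without liver control replicate 3 (1.11). Macrophages exceeded livers in *Id3* alone among the 4 (5.04, SE 0.39, adjusted p = 2.41e-05). Of all genes, 59.9% were called between ECs and livers, 26.6% higher and 33.3% lower in ECs, and 60.4% between macrophages and livers, 26.9% higher and 33.5% lower in macrophages. The macrophage controls of the 2 experiments differed in *Id3* by 0.95 on the log2 scale (SE 0.12, adjusted p = 0.00226), higher in the Smad4FF controls and short of the fold threshold, while 12.4% of genes passed both thresholds, 7.17% higher and 5.28% lower there. *Id2* differed by 0.57 and *Id1* by -0.099, so the difference between experiments was not the same for each gene.

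**Figure D2:**
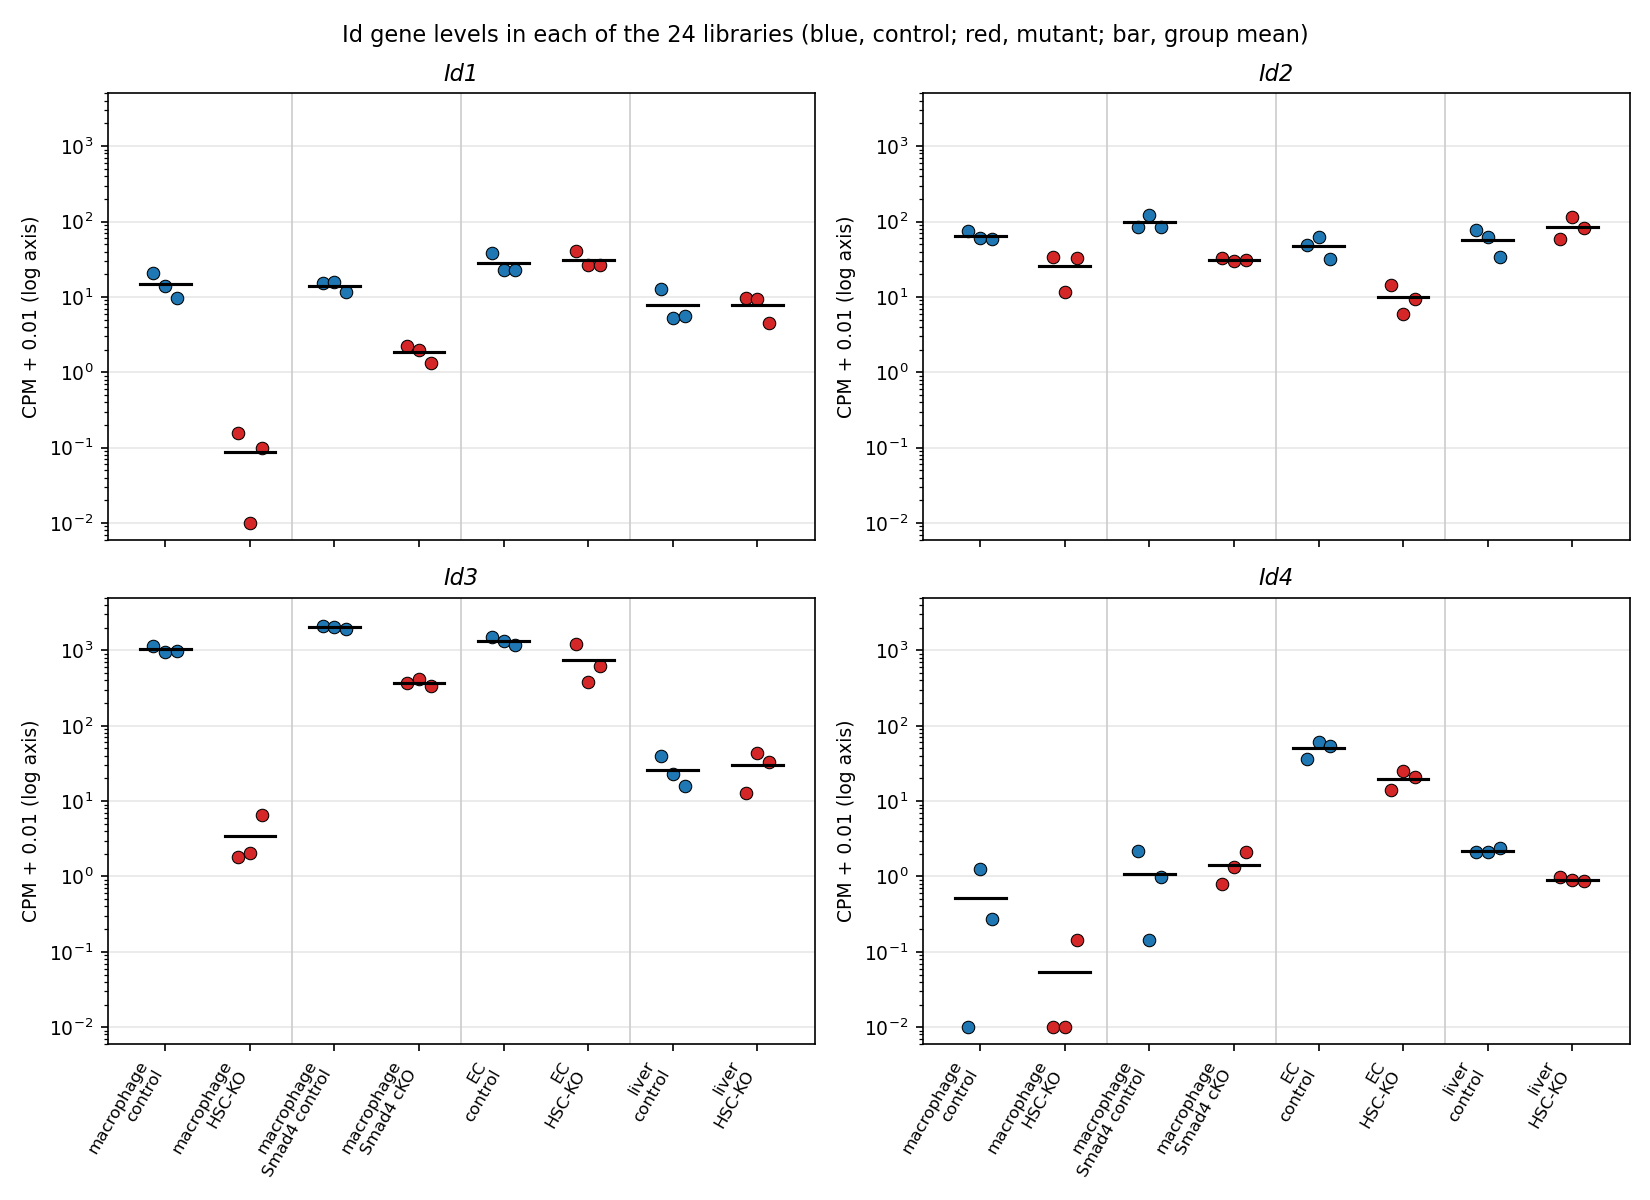
Each point is the CPM of 1 library plus 0.01 on a log axis, with 1 panel per Id gene, the 8 groups along the x axis, controls in blue, mutants in red and the group mean as a bar. *Id1* and *Id3* in HSC-KO macrophages lie under all other groups, *Id3* by a small step against livers (at most 6.52 CPM against at least 12.8 CPM). *Id4* is high only in ECs, and *Id2* keeps within 5.93 to 123 CPM in all libraries.

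Macrophages of HSC-KO mice had nearly lost *Id1* and *Id3* and retained part of *Id2*. *Id3* measured 1157, 955 and 992 CPM in controls and dropped to 1.80, 2.02 and 6.52 CPM in mutants. All 3 mutant libraries lay far below all 3 controls. Mutant libraries held on average 0.333% of the control mean of *Id3* (log2 difference -8.23, SE 0.61, 95% interval -9.64 to -6.81, edgeR adjusted p = 0.000183). *Id1* was at 21.03, 13.8 and 9.80 CPM in controls, with 1779, 1175 and 561 counts, and the mutant libraries had 13, 0 and 8 counts. A count of 0 in HSC-KO replicate 2 allows up to 0.0314 CPM at 3 counts, for counting error only. The *Id1* mean in mutants was 0.528% of the control mean (log2 difference -7.56, SE 0.80, 95% interval -9.42 to -5.70, edgeR adjusted p = 0.00075).

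*Id2* moved in the same direction by a far smaller step. Its level was 74.7, 60.5 and 59.5 CPM in controls and 33.6, 11.6 and 32.9 CPM in HSC-KO macrophages, without overlap of the groups. The mutant mean was 40.1% of the control mean (log2 difference -1.32, SE 0.37, edgeR adjusted p = 0.0427). This call is close to both thresholds and was lost when any 1 of the 6 libraries was left out (log2 -1.54 to -0.97), HSC-KO replicate 2 being the lowest. *Id4* had 0, 106 and 15 counts in controls and 0, 0 and 12 in mutants, and its groups overlapped (log2 -3.48, SE 1.99, adjusted p = 0.27). In all, 3 of 4 Id genes were called lower in these macrophages, where 5.34% of the 16337 genes tested were called lower, 6.32% higher and 11.7% in either direction. Per length of exon, the family sum was 12.7 RPKM in the mutants, of which *Id2* made up 84.2% and *Id3* 15.2%.

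Kupffer cell markers moved with these genes. All 10 were called lower in HSC-KO macrophages, their summed level going from 34030 to 35645 CPM in controls to 768 to 1167 CPM in mutants, with none of the 10 at 0, while none of the 10 general macrophage markers was called (15415 to 16977 CPM in mutants, 18520 to 20282 CPM in controls). Of the 9 T and NK cell markers 6 were called higher, their sum being 9.44 to 21.9 CPM in controls and 55.9 to 175 CPM in mutants. Dendritic cell markers summed to 7.55 to 13.5 CPM in controls and 17.8 to 43.3 CPM in mutants, with 2 of 7 called higher, and hepatocyte markers to 259 to 902 CPM and 337 to 517 CPM, with 3 of 8 called lower. Of the cholangiocyte markers 1 of 5 tested was called higher. The part of any of these in the Id levels was not tested. In such bulk samples, fewer cells that express a gene and less RNA per cell cannot be told apart.

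Endothelial transcripts, which carry high *Id3*, were present at low level. The summed 12 endothelial markers stood at 20.4, 320 and 202 CPM in control and 7.61, 9.59 and 58.1 CPM in HSC-KO macrophages, with none at 0 in either group, 1 of the 12 called lower and a median log2 difference of -2.77. Set against the sum in ECs of the same genotype, this is at most 1.57% of an EC library, and it would carry at most 3.15% of the *Id1*, 1.23% of the *Id2* and 2.22% of the *Id3* measured in control macrophages. In the mutant macrophages it would carry 20.2%, 22.7% and 42.6% of the small amount of *Id3* that was measured, and 10.3% and 133% of the *Id1* in replicates 1 and 3, replicate 2 having no count. HSC-KO replicate 3, the library with the highest residual *Id3*, also had the most endothelial transcripts of the 3. With the markers as a covariate, the log2 difference of *Id2* was -1.30 and no longer called.

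Macrophages of Smad4FF cKO mice also had less *Id1*, *Id2* and *Id3*, in steps more alike than those of HSC-KO mice. *Id3* was at 2088, 2068 and 1930 CPM in Smad4FF controls and 372, 415 and 336 CPM in cKO libraries (log2 difference -2.44, SE 0.13, 95% interval -2.74 to -2.14, edgeR adjusted p = 0.000102). *Id1* was at 15.1, 15.5 and 11.5 CPM in controls and 2.20, 1.98 and 1.33 CPM in cKO libraries (-2.93, SE 0.25, 95% interval -3.52 to -2.35, adjusted p = 0.000787). *Id2* was at 84.3, 123 and 84.8 CPM in controls and 32.7, 29.6 and 31.3 CPM in cKO libraries (-1.64, SE 0.17, adjusted p = 0.00162). None of these 3 genes had overlapping groups, and the cKO means were 18.5%, 13.1% and 32.0% of control for *Id3*, *Id1* and *Id2*. *Id4* had 208, 12 and 101 counts in controls and 75, 156 and 174 in cKO libraries and was not called (0.36, SE 0.82, adjusted p = 0.851). Thus 3 of 4 Id genes were called lower where 2.67% of 17517 genes were called lower, 2.76% higher and 5.43% in either direction.

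Endothelial transcripts were more abundant in this experiment. The summed endothelial markers came to 2222, 617 and 2155 CPM in Smad4FF controls and 2158, 2221 and 1691 CPM in cKO libraries, none of the 12 being called, and control replicate 2 stood apart with the lowest sum. Against control ECs this is 3.02 to 10.9% of an EC library. It would carry 33.3 to 38.3% of the *Id3*, 12.6 to 17.5% of the *Id2* and 133 to 174% of the *Id1* measured in cKO macrophages, so that *Id1* measured there is below the amount these transcripts would bring. In the Smad4FF controls they would carry 1.98 to 7.39% of the *Id3* and 5.41 to 25.4% of the *Id1*. For *Id4*, which is high in ECs alone, the same reckoning gives 201% to 689% of the level measured in cKO libraries, so it overstates what these transcripts bring for that gene. The part of endothelial RNA in the residual Id levels was not tested beyond the covariate, with which *Id1*, *Id2* and *Id3* kept their calls. Without control replicate 2, the 3 genes also kept their calls. Of the 10 Kupffer cell markers 9 were called lower here, their sum going from 29057 to 37026 CPM to 1802 to 1939 CPM. So were 3 of 10 macrophage markers (20710 to 25210 CPM in controls, 11214 to 15160 CPM in cKO). Among cholangiocyte markers 1 of 6 tested was called higher, and of 7 dendritic cell markers 1 was called higher and 1 lower. None of the 9 T and NK cell or 8 hepatocyte markers was called.

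**Figure D3:**
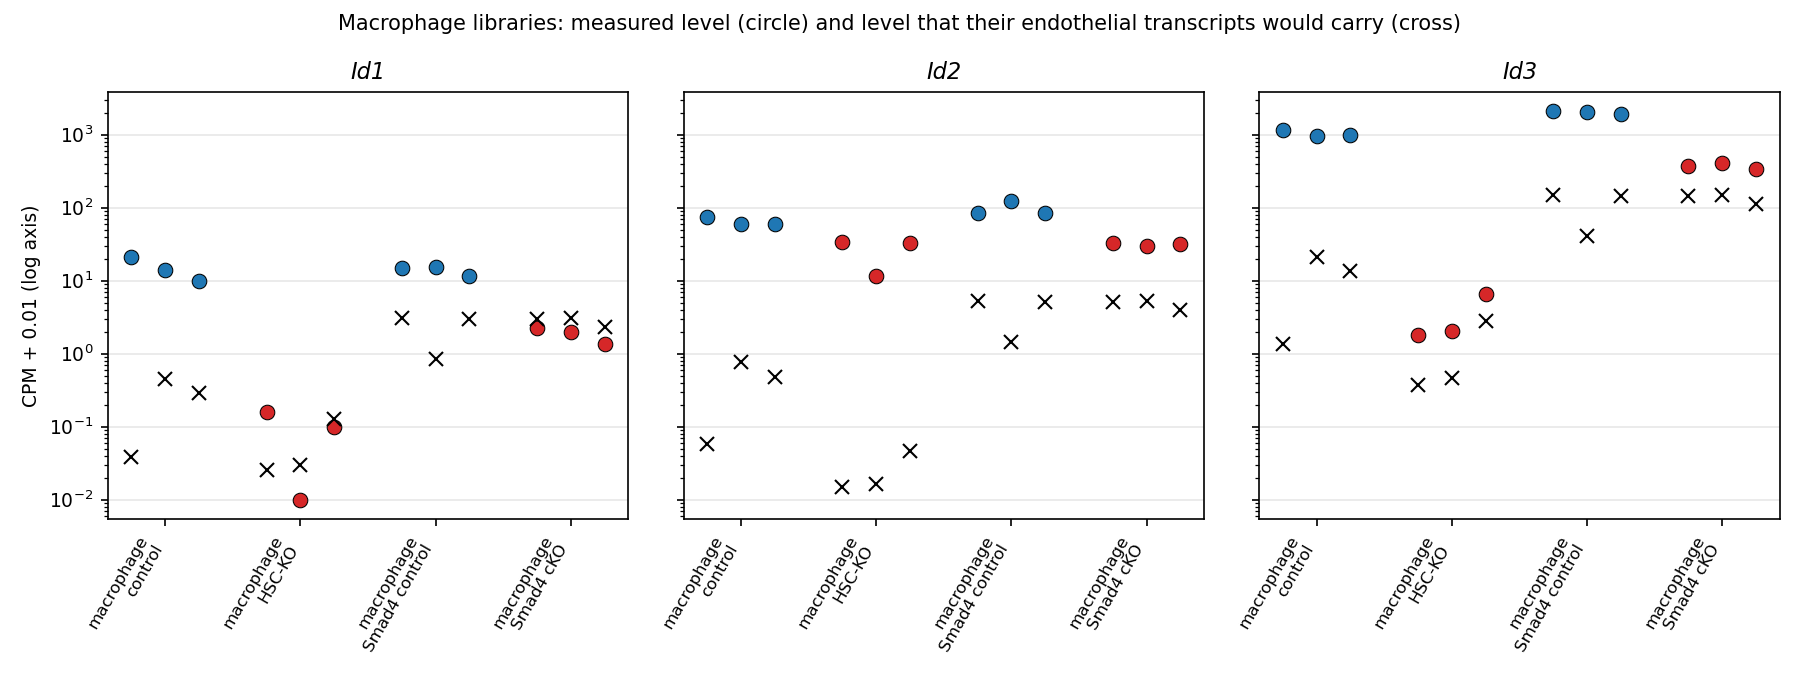
For *Id1*, *Id2* and *Id3*, circles are the CPM measured in each of the 12 macrophage libraries (blue, control; red, mutant) and crosses the CPM that their endothelial marker content would carry, both plus 0.01 on a log axis. Crosses lie below the circles in all 6 control libraries, and for *Id1* they lie above the circles in all 3 Smad4FF cKO libraries and in HSC-KO replicates 2 and 3.

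The loss of the ligands from HSCs went with a larger fall of *Id1* and *Id3* in macrophages than the deletion of *Smad4* in hematopoietic cells. Tested over the 12 macrophage libraries, the log2 difference between the 2 responses was -5.74 for *Id3* (SE 0.56, edgeR adjusted p = 0.000465) and -4.58 for *Id1* (SE 0.78, adjusted p = 0.0113). For *Id2* it was 0.38 (SE 0.45, 95% interval -0.60 to 1.35, adjusted p = 0.754), so a difference of more than 1.35 in either direction lies outside the interval. *Id4* was not called (-3.82, SE 2.12), and its value went from -8.88 to -1.86 as single libraries were left out. So 2 of 4 Id genes had a lower response here, where 2.61% of 18149 genes were called, 1.18% lower and 1.42% higher. By the same test 4 of 10 Kupffer cell and 1 of 12 endothelial markers were called lower. Called higher were 2 of 9 T and NK cell, 1 of 7 dendritic cell and 1 of 10 macrophage markers. *Smad4* transcripts remained in the cKO libraries at the levels given above, and control ECs had 100, 87.4 and 83.2 CPM. How much of the remaining *Smad4* was endothelial was not tested. The paper cites an earlier report that *Smad4* deletion in Kupffer cells of these mice was efficient. Endothelial transcripts made up 8.28 to 10.9% of an EC library in the cKO libraries and 0.0491 to 0.375% in HSC-KO macrophages, and would carry 133 to 174% of the *Id1* and 33.3 to 38.3% of the *Id3* left in the former. The same reckoning gives 201% to 1147% for *Id4* in the 6 libraries of that experiment, and whether it also overstates *Id1* and *Id3* was not tested. The part of *Smad4* transcripts, of endothelial RNA or of other cell types in the difference was not tested.

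ECs of HSC-KO mice showed another pattern, in which *Id2* and *Id4* fell and *Id1* did not. *Id2* was at 48.9, 62.2 and 31.9 CPM in control ECs and 14.3, 5.93 and 9.25 CPM in HSC-KO ECs, the groups lying apart (log2 difference -2.28, SE 0.37, 95% interval -3.13 to -1.42, edgeR adjusted p = 0.00501). *Id4* was at 36.0, 60.8 and 54.4 CPM in controls and 14.2, 24.7 and 20.6 CPM in mutants, again without overlap (-1.34, SE 0.27, 95% interval -1.96 to -0.73, adjusted p = 0.0111). *Id4* was not called in ECs when the test asked for a change beyond log2 1 or when all 24 libraries were fitted together. *Id1* was at 37.9, 22.5 and 22.96 CPM in control ECs and 41.1, 26.2 and 26.2 CPM in mutant ECs, 112% of the control mean. Its log2 difference was 0.17 (SE 0.27, adjusted p = 0.73), and the 95% interval of -0.47 to 0.80 does not reach the fall measured in macrophages.

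*Id3*, the most abundant of the 4 in ECs, was at 1514, 1352 and 1189 CPM in controls and 1219, 376 and 630 CPM in HSC-KO ECs. Mutant replicate 1 lay within the control range and the other 2 well below it. Over all libraries *Id3* was not called (log2 difference -0.87, SE 0.39, 95% interval -1.78 to 0.049, edgeR adjusted p = 0.175). Without HSC-KO replicate 1 it was called, at -1.43 (adjusted p = 0.0103). The same replicate had the highest *Id1* and *Id2* and the lowest *Id4* of the 3 mutant EC libraries. By the labels it came from the mouse that also gave macrophage HSC-KO replicate 3, whose *Id3* of 6.52 CPM was the highest among mutant macrophages. In all, 2 of 4 Id genes were called lower in ECs, where 6.01% of 16053 genes were called lower, 7.68% higher and 13.7% in either direction. Kupffer cell markers summed to 454 to 479 CPM in control and 14.01 to 32.3 CPM in mutant ECs, with *Clec4f*, *Vsig4*, *Timd4* and *Marco* at 0 in all mutant EC libraries, 7 of 10 called lower and 1 called higher. These sums are low beside the 34030 CPM or more of control macrophages. Macrophage markers (225 to 331 CPM in control, 67.8 to 110.8 CPM in mutant ECs, 4 of 8 tested called lower) and hepatocyte markers (56.3 to 108 CPM and 40.9 to 60.8 CPM, 3 of 8 called lower) also moved. Neutrophil markers summed to at most 1.28 CPM, 5 of 6 being at 0 in both groups, and the 1 tested was called higher. Of the B cell markers 1 of 2 tested was called higher, and 1 of 12 endothelial and 1 of 10 stellate cell markers were called lower. The part of these markers in the EC results was not tested.

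The responses of *Id1* and *Id3* differed between macrophages and ECs when the difference itself was tested over 12 libraries. It was -7.72 on the log2 scale for *Id1* (SE 0.82, edgeR adjusted p = 0.000135) and -7.36 for *Id3* (SE 0.77, adjusted p = 0.000123), lower in macrophages in both cases. *Id2* gave 0.97 (SE 0.58, 95% interval -0.32 to 2.25, adjusted p = 0.307) and *Id4* -2.15 (SE 1.60, adjusted p = 0.418), a value that went from -7.08 to -0.011 as single libraries were left out. Thus 2 of 4 Id genes were called, both lower in macrophages, against 12.3% of 18213 genes, 6.00% lower and 6.32% higher. Within 1 mutant mouse, the one that gave EC replicate 1 and macrophage replicate 3, *Id1* was at 41.1 CPM in ECs and 0.0876 CPM in macrophages. Within the other mutant mouse sequenced for both, *Id1* was at 26.2 CPM in ECs and had no count in macrophages, and *Id3* was at 630 and 2.02 CPM.

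**Figure D4:**
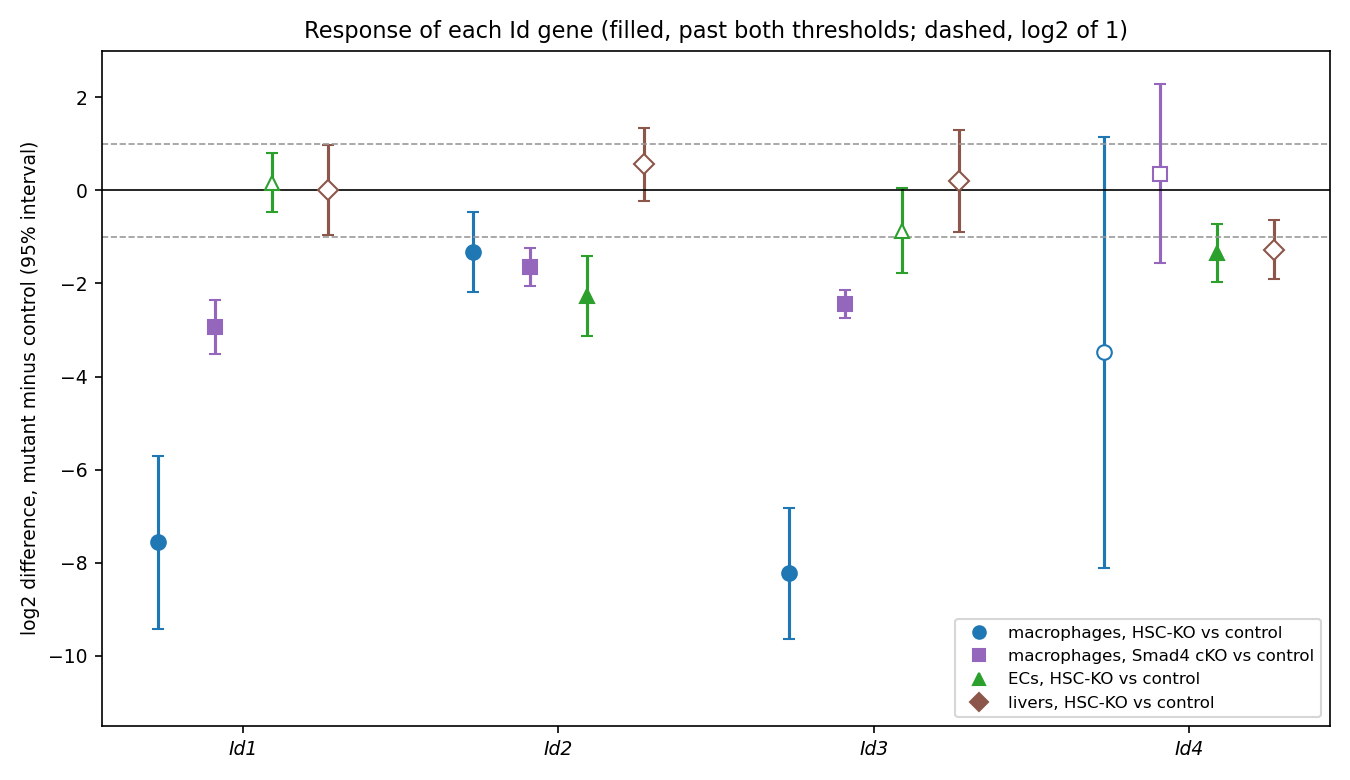
Each symbol is the log2 difference between mutant and control for 1 Id gene in 1 comparison, with its 95% interval, and filled symbols passed both thresholds. *Id1* and *Id3* lie at -7.56 and -8.23 in HSC-KO macrophages and at 0.17 and -0.87 in HSC-KO ECs, whereas *Id2* falls in both.

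In whole livers of HSC-KO mice none of the 4 Id genes was called by edgeR's quasi-likelihood test, while *Id4* had an unadjusted p of 0.00176 and was called by DESeq2. *Id4* was at 2.09, 2.07 and 2.35 CPM in control livers and 0.964, 0.880 and 0.849 CPM in mutant livers, 41.4% of the control mean with no overlap. Its log2 difference was -1.27 (SE 0.27, edgeR adjusted p = 0.0571), and DESeq2 gave -1.27 with an adjusted p of 0.0042. *Id1* was at 12.6, 5.16 and 5.62 CPM in controls and 9.52, 9.42 and 4.54 CPM in mutants (log2 0.0083, SE 0.41, 95% interval -0.96 to 0.97). *Id2* was at 77.3, 62.2 and 33.6 CPM and 58.6, 114 and 83.2 CPM (0.56, SE 0.34, adjusted p = 0.58). *Id3* was at 39.6, 22.6 and 15.6 CPM and 12.8, 43.8 and 32.7 CPM (0.20, SE 0.47, 95% interval -0.90 to 1.30). The groups of these 3 genes overlapped, and in this comparison 1.45% of 17118 genes were called lower, 1.03% higher and 2.48% in either direction.

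Livers hold all cell types, and the share that ECs would bring differs by gene. Endothelial markers summed to 354 to 448 CPM in control and 349 to 396 CPM in mutant livers, 1.74 to 2.55% of an EC library. Of the 12, 1 was called higher, 2 lower and 9 not called in mutant livers, with a median log2 difference of 0.25 (all genes -0.0098). The 2 lower were *Flt4* (-1.76) and *Ptprb* (-1.14), both among the genes most like *Id4* over the 24 libraries. At that share ECs of the same genotype would bring 41.8 to 57.6% of the *Id4* measured in livers, 43.2 to 190% of the *Id3*, 3.84 to 15.5% of the *Id1* and 0.220 to 3.11% of the *Id2*. Hepatocyte markers summed to 106058 to 183512 CPM, and 7 of 10 Kupffer cell markers were called lower (455 to 703 CPM in controls, 186 to 381 CPM in mutants, none at 0), as were 4 of 10 macrophage markers (199 to 313 CPM and 74.7 to 118 CPM). Among cholangiocyte markers 1 of 7, and among neutrophil markers 1 of 5 tested, was also called lower. The part of cell composition in the liver values was not tested.

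Responses in livers were set against those in the sorted cells, with the macrophage and EC libraries shared with the comparisons above. The difference between macrophages and livers was -7.59 for *Id1* (SE 0.97, edgeR adjusted p = 0.00078) and -8.45 for *Id3* (SE 0.87, adjusted p = 0.000251), and -1.91 for *Id2* (SE 0.57, adjusted p = 0.0605), with 7.56% of 19057 genes called, 3.32% lower and 4.24% higher. Between ECs and livers only *Id2* was called (-2.80, SE 0.56, adjusted p = 0.0108), with 6.53% of 18875 genes called, 2.65% lower and 3.88% higher. *Id4* differed there by -0.034 (SE 0.34, 95% interval -0.78 to 0.71).

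The order of levels over the 8 groups, per length of exon, also set the genes apart. Levels were scaled within each table, so the order between tables is a description, and cell type and table cannot be told apart. Tested together, control ECs and control macrophages were not called different in *Id1* (log2 0.72, edgeR adjusted p = 0.111) or *Id3* (0.20, adjusted p = 0.34). *Id1* was highest in HSC-KO ECs (26.9 ± 7.41 RPKM) and control ECs (23.96 ± 7.57), which overlapped. Both macrophage controls (12.8 ± 4.90 and 12.1 ± 1.88) overlapped each other, as did both liver groups (6.75 ± 2.46 and 6.70 ± 3.57), and Smad4FF cKO (1.58 ± 0.394) and HSC-KO macrophages (0.0677 ± 0.0642) came last without overlap. For *Id2* every neighbour in the order overlapped, from 40.0 ± 9.16 RPKM in Smad4FF controls to 4.03 ± 1.73 in HSC-KO ECs. *Id3* ran from 1133 ± 48.1 RPKM in Smad4FF controls through HSC-KO ECs (414 ± 242), Smad4FF cKO macrophages (209 ± 22.2) and livers (16.6 ± 8.79 and 14.5 ± 6.88) to 1.92 ± 1.49 in HSC-KO macrophages. *Id4* was at 13.1 ± 3.35 RPKM in control ECs and 5.16 ± 1.38 in HSC-KO ECs, apart from each other and from the rest, which lay at 0.564 RPKM or less.

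The genes that carry the BMP signal were looked at beside the Id genes. Among 8 receptors, 7 were tested in each comparison and *Bmpr1b* was not. *Acvrl1*, which encodes ALK1, differed from control by 0.086 on the log2 scale in HSC-KO macrophages (SE 0.13) and by -0.24 in Smad4FF cKO macrophages (SE 0.13), and it rose in HSC-KO ECs by 1.73 (SE 0.17, edgeR adjusted p = 0.000539). *Bmpr1a*, another type I receptor, fell in both macrophage mutants, from 17.5, 15.0 and 9.59 CPM to 3.26, 2.09 and 5.06 CPM in HSC-KO mice (-2.02, SE 0.37) and with a log2 difference of -1.20 in Smad4FF cKO mice, a call lost in 5 of 6 fits that left out 1 library. In ECs, *Acvr2a*, a type II receptor, rose (1.17), and *Acvr1*, a type I receptor, and *Eng*, the co-receptor endoglin, fell (-1.67 and -1.31). *Bmpr2*, the type II receptor of the BMP ligands, and *Acvr2b* lay between -0.30 and 0.55 and were not called anywhere. No receptor was called in livers, where 2.48% of all genes were called. The share of all genes called was 11.7% in HSC-KO macrophages, 5.43% in Smad4FF cKO macrophages and 13.7% in ECs.

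Of the SMADs, *Smad1* and *Smad5* were not called in either macrophage comparison (-0.56 and 0.089 in HSC-KO, -0.35 and -0.054 in Smad4FF cKO), and *Smad5* rose in HSC-KO ECs (1.63, SE 0.11, adjusted p = 0.000135), where *Smad1* differed by 0.32. *Smad9*, a further signal carrier and itself a BMP target, had 85, 161 and 49 counts in control macrophages and 0 in all 3 HSC-KO libraries, and 35, 81 and 64 counts against 0 in all 3 Smad4FF cKO libraries, and was called lower in both. In ECs it had 15, 43 and 18 counts in controls and 4, 0 and 0 in mutants, and was also called lower, a call at these few counts that was lost in 5 of 6 fits that left out 1 library and held only without HSC-KO replicate 1. None of the 4 SMADs was called in livers by edgeR, where 2.48% of all genes were called, while *Smad1* had an adjusted p of 0.107. The shares called in the other comparisons were 11.7% (HSC-KO macrophages), 5.43% (Smad4FF cKO macrophages) and 13.7% (ECs).

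Ligands other than the deleted ones changed in ECs and livers. Of 7 ligand genes, 5 were tested in ECs, where 13.7% of all genes were called. *Bmp2* and *Bmp6*, made by hepatic ECs, fell there (log2 differences -5.01, SE 0.81, and -3.68, SE 0.19), and *Bmp4* rose by 1.86 (SE 0.23). Livers, where 2.48% of all genes were called, showed the same genes called in the same directions (*Bmp2* -4.77, *Bmp6* -1.81, *Bmp4* 1.30), the last lost in 5 of 6 fits that left out 1 library. *Gdf2* was called lower in ECs, from 241, 108 and 76 counts to 0, 5 and 0. In macrophages, 6 ligand genes were tested and none was called by edgeR in either experiment, where 11.7% (HSC-KO) and 5.43% (Smad4FF cKO) of all genes were called.

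Other BMP target genes did not move as a block with the Id genes. The list held 20 genes, of which 12 were tested in HSC-KO macrophages. *Smad6* and *Smad7*, the inhibitory SMADs, and *Hey1*, a bHLH repressor, were called lower there, *Runx2*, a transcription factor, was called higher, and the other 8 were not called, where 5.34% of all genes were called lower and 6.32% higher (list median -0.33, all genes 0.039). *Smad6* was at 6.16, 6.14 and 7.95 CPM in controls and 0.0797, 0.629 and 0.405 CPM in HSC-KO macrophages (log2 -4.17, SE 0.65, adjusted p = 0.00408). *Smad7* was at 17.2, 14.1 and 18.3 CPM against 4.43, 4.61 and 5.50 CPM (-1.77, SE 0.18). *Hey1* was at 6.44, 4.90 and 9.42 CPM against 0.182, 0.136 and 0.131 CPM (-5.51, SE 0.38). In Smad4FF cKO macrophages, *Smad7* (-1.46) and *Hey1* (-2.96) were lower and *Runx2* (4.09) and *Cdkn1a* (1.16), a cell cycle inhibitor, higher among 13 tested, where 2.67% of all genes were called lower and 2.76% higher (list median -0.13, all genes 0.036), while *Smad6* had -0.72 and an adjusted p of 0.247. The responses of *Smad6* differed between the 2 macrophage experiments by -3.41 (SE 0.73, adjusted p = 0.0303) and those of *Smad7* by -0.27 (SE 0.25, adjusted p = 0.669). The call of *Smad6*, the only listed target with a lower response there, rests on single libraries. No listed target was called lower without control replicate 2 or 3, Smad4FF control replicate 2 or 3, or Smad4FF cKO replicate 1 or 2. *Lmo2* was the only listed target with a higher response (1.16, SE 0.28, edgeR adjusted p = 0.0495), close to both thresholds. The list had 15 genes tested there, where 1.18% of all genes were called lower and 1.42% higher.

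In ECs the same list gave 3 lower and 3 higher of 12 tested, where 6.01% of all genes were called lower and 7.68% higher (list median 0.035, all genes 0.0048). *Smad6* went from 67.7, 75.4 and 58.3 CPM to 11.4, 7.81 and 5.68 CPM (-3.01, SE 0.27, adjusted p = 0.000361) and *Smad7* from 45.0, 73.7 and 50.7 CPM to 16.2, 13.9 and 18.6 CPM (-1.80, SE 0.22). *Bmper*, a secreted BMP modulator, was also lower (-2.32), and *Msx1*, *Cdkn1a* and *Atoh8*, a bHLH gene, were higher (2.95, 2.21 and 1.00). *Atoh8* is at the fold threshold, and 2 listed targets in place of 3 were called higher whichever of the 6 libraries was left out. *Id1* thus kept its level in ECs in which *Smad6*, *Smad7*, *Id2* and *Id4* were lower. In livers only *Smad6* was called of 16 tested, where 2.48% of all genes were called, from 13.7, 9.95 and 7.76 CPM to 1.94, 3.63 and 1.53 CPM (-2.14, SE 0.37, adjusted p = 0.0264; list median -0.012, all genes -0.0098). *Hey1* responded differently in macrophages and ECs (difference -5.94, SE 0.59, adjusted p = 9.32e-05), as did *Id1* and *Id3*, while no difference was called for *Smad6* (-1.15, SE 0.65, adjusted p = 0.271) or *Smad7* (0.035, SE 0.28). *Atoh8* and *Msx1* were also called lower in macrophages than in ECs in this test, but had 0, 32 and 16 and 0, 9 and 4 counts in control macrophages and 0 in all 3 mutant libraries, so no size is given.

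**Figure D5:**
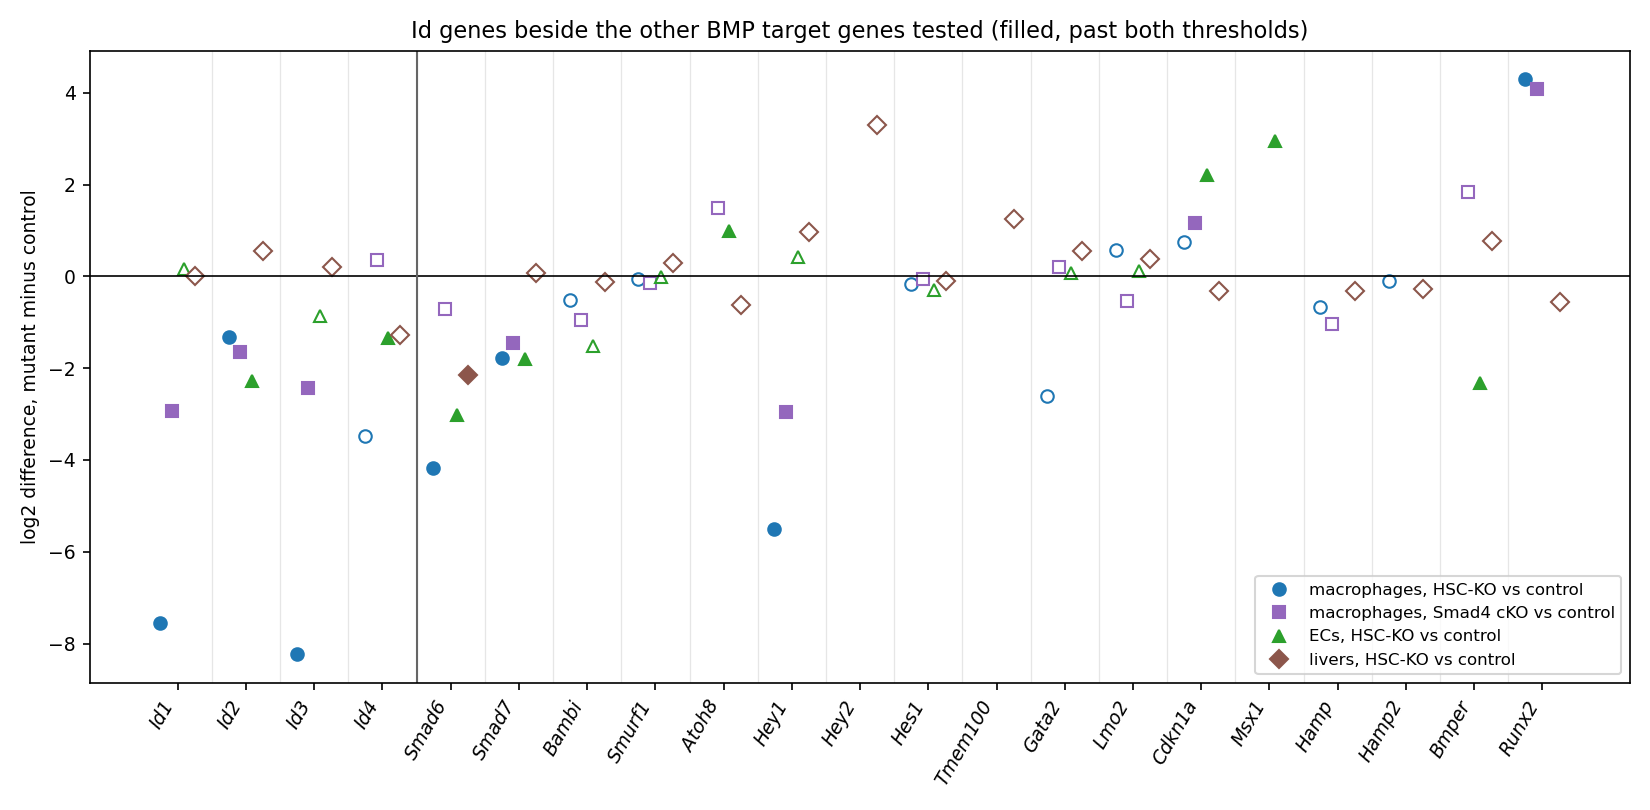
Each symbol is the log2 difference between mutant and control, for the 4 Id genes left of the line and for the other listed BMP target genes that were tested in at least 1 comparison to its right, and filled symbols passed both thresholds. *Smad6* and *Smad7* fell in HSC-KO macrophages and ECs alike, whereas *Id1*, *Id3* and *Hey1* were called lower in HSC-KO macrophages and not in HSC-KO ECs, where *Id3* was called only without replicate 1.

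Of the partners of Id proteins, the 3 E protein genes were not called in HSC-KO macrophages (*Tcf3* -0.51, *Tcf4* 0.46, *Tcf12* 0.75) or in Smad4FF cKO macrophages (-0.69, 0.098 and 0.26). In ECs *Tcf4* rose from 268, 368 and 334 CPM to 657, 921 and 826 CPM (1.31, SE 0.20, adjusted p = 0.00349), and *Tcf3* (0.29) and *Tcf12* (-0.13) were not called. None was called in livers by edgeR (*Tcf3* 0.14, *Tcf4* 0.74, *Tcf12* 0.17). Of 24 tissue-restricted bHLH genes, 5 were tested in HSC-KO macrophages, where 11.7% of all genes were called, and 1 was called, *Lyl1*, a gene of blood cell precursors, at 17.4, 11.6 and 16.0 CPM in controls and 89.8, 95.7 and 66.9 CPM in mutants (2.49, SE 0.21). None of 6 tested was called by edgeR in Smad4FF cKO macrophages, with 5.43% of all genes called, where *Lyl1* had 1.79 and an adjusted p of 0.078. In ECs, where 13.7% of all genes were called, 2 of 6 tested were called, with *Tcf15* going from 0.0366, 0.356 and 0.272 CPM to 17.3, 23.9 and 44.1 CPM (7.04, SE 0.70) and *Twist1* lower (-1.97, SE 0.35). None of 8 was called by edgeR in livers, with 2.48% of all genes called, where *Tcf15* had 4.40 and an adjusted p of 0.0521.

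The genes whose pattern was most like each Id gene were found by Pearson's r of log2 CPM over the 24 libraries, centred on the mean of each table, among genes of moderate or high level. For *Id1* these were *Cdh5* (0.964), *Tspan9* (0.961), *Cttn* (0.959), *Csrp1* (0.956) and *Vopp1* (0.955). For *Id3* they were *Lbp* (0.975), *Cdh5* (0.973), *Dmwd* (0.971), *Pygl* (0.957) and *Mark4* (0.954). *Cdh5* encodes VE-cadherin, and the paper counts it among the genes of Kupffer cell identity. It was at 282, 256 and 197 CPM in control macrophages. Its log2 differences were -7.40 in HSC-KO macrophages, -2.72 in Smad4FF cKO macrophages and 0.10 in ECs. Those of *Id1* were -7.56, -2.93 and 0.17, a likeness for which *Cdh5* was picked. For *Id2* they were *Hfe* (0.890), *Plbd2* (0.882), *Dapk1* (0.876), *Snap29* (0.873) and *Mavs* (0.873), and *Dapk1*, a kinase gene, fell in the same 3 comparisons (-2.65, -2.52 and -3.63). *Id4* was most like *Lrrc32* (0.929), *Amotl1* (0.910), *Flt4* (0.908), *Tinagl1* (0.908) and *Ptprb* (0.906), of which *Flt4* and *Ptprb* are endothelial markers. Within the family, r was 0.943 for *Id1* with *Id3*, 0.587 for *Id1* with *Id2*, 0.637 for *Id2* with *Id3* and 0.156 to 0.373 for *Id4* with the others. The points share tables and groups, so these values are descriptions.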

How the data were processed

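The members and gene lists were chosen with earlier results of these data known. The deposited values are raw whole-number counts per gene in 4 tables, which the authors made with featureCounts from HISAT2 alignments to the mm10 build (GRCm38). Versions, strand setting and handling of multiply matching reads are not given in the sources used here, and the labels and the study's methods name different library kits. All 24 sample columns were used, each assigned from its label. With R 4.3.3, low genes were removed in edgeR 4.0.16 by filterByExpr (at least 10 counts, 15 in total), and the rest were TMM-scaled and tested with glmQLFit and glmQLFTest on the libraries of each comparison. A call needed a Benjamini-Hochberg adjusted p below 0.05 over all genes and an absolute log2 fold change above 1. SE was the absolute log2 fold change over the square root of F, and 95% intervals used the t distribution. Differences between responses were interactions over 12 libraries of 48337 genes shared by the tables, and SD was taken over 3 libraries. Exon lengths came from GENCODE vM21. Named genes were the Id genes, the deleted genes, called members of the lists (up to 6 per list by fold), all receptors, SMADs and E proteins, and the 5 genes most like each Id gene (prior count 2, mean log2 CPM of at least 3). Alternatives were DESeq2 1.42.0, other scalings, filters and thresholds, sex from *Xist*, endothelial markers, the mouse as a random block (limma 3.58.1), replicate blocks and each library left out. *Xist* was at 0, 0 and 21.1 CPM in control macrophages and 0, 75.5 and 87.2 CPM in HSC-KO macrophages. In livers it was at 303 to 708 CPM except in HSC-KO replicate 3 (0.167 CPM). Sex was therefore not balanced between genotypes in these groups. An exact permutation of 3 against 3 libraries cannot go below 0.1. Fits were tested on simulated data.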

Additional observations from a re-analysis of the deposited data

Results flagged for a closer look

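The response to HSC deletion of *Gdf2* and *Bmp10* differed between macrophages and ECs for *Id1* (log2 difference of the responses -7.72, edgeR adjusted p = 0.000135) and *Id3* (-7.36, adjusted p = 0.000123), by a test of the interaction over 12 libraries. Between macrophages and livers, it differed for *Id1* (-7.59, adjusted p = 0.00078) and *Id3* (-8.45, adjusted p = 0.000251). Between ECs and livers it differed for *Id2* (-2.80, adjusted p = 0.0108). In each case all 3 mutant libraries of the first-named cells lay below all of their controls, whereas the groups overlapped in the second-named cells or tissue. Cell types and count tables coincide, and their parts cannot be told apart.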

How the results depend on the processing

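Of the log2 results for the Id genes, 694 kept their direction and side of the threshold under the alternatives, 27 reversed, 12 gained and 16 lost a call. The falls of *Id1* and *Id3* in HSC-KO macrophages and of *Id1*, *Id2* and *Id3* in Smad4FF cKO macrophages kept their calls wherever they were tested. The fall of *Id2* in HSC-KO macrophages lost its call with library size alone (-1.23, adjusted p = 0.0621), against a log2 change of 1 (-1.32, 0.598), with sex (-1.21, 0.0712) or endothelial markers (-1.30, 0.151) as covariate, and without any library (-1.54 to -0.97). *Id4* there turned to 2.78 with the endothelial covariate and was called at -3.56 over all 24 libraries. *Id4* in ECs was not called against a log2 change of 1 (-1.34) or over all 24 libraries (-1.33), leaving 1 Id gene called, and *Id4* in livers was called by DESeq2 (-1.27) and with library size alone (-1.38), giving 1. *Id1* in livers was -0.11 with library size alone and -0.059 over all 24 libraries. With at least 10 counts in every library, *Id1* was not tested in HSC-KO macrophages (2 Id genes called), nor between their responses and those of livers (2 called) or of Smad4FF cKO macrophages or ECs (1 called in each), and *Id4* was not tested between control ECs and macrophages, leaving 0. The *Id2* difference between macrophages and livers was called by DESeq2 (-1.90) and with at least 10 counts (-1.90). Between ECs and livers, *Id4* was 0.35 with library size alone and 0.14 with sex, *Id1* -0.22 with sex, and *Id2* -2.80 against a log2 change of 1 (0.0543), leaving 0 called. Control *Id2* in macrophages against livers was 0.071 with library size alone. With each library left out, values ranged from -0.17 to 1.31 for *Id4* in Smad4FF cKO macrophages, -0.086 to 0.46 for *Id1* and -1.43 to -0.55 for *Id3* in ECs, -0.20 to 0.55 for *Id1* and -0.19 to 0.65 for *Id3* in livers, and -0.34 to 0.48 for *Id1* and -0.24 to 0.15 for *Id4* between ECs and livers. For control levels they ranged from 1.03 to 1.84 (*Id1*) and -1.08 to -0.53 (*Id2*) between ECs and livers, 0.44 to 1.03 (*Id1*, 1 to 2 genes called) between ECs and macrophages, 0.34 to 1.20 (*Id1*), -0.39 to 0.18 (*Id2*) and -4.41 to -1.76 (*Id4*, 1 to 2 called) between macrophages and livers, and -0.32 to 0.21 (*Id1*) and 0.90 to 1.02 (*Id3*, 0 to 1 called) between the macrophage controls. Causes were not tested. Same-numbered replicates correlated by -0.107 to 0.162, so they share only a number, and a replicate block changed no Id call (*Id2* in HSC-KO macrophages -1.45, adjusted p = 0.0347). Low counts limit *Id4* in macrophages.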
